A study of Mus musculus with 10 samples.

Results

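Fibroblast growth factor (FGF) signalling in mouse embryonic stem (ES) cells was followed through 8 genes, 4 ligands (Fgf4, Fgf5, Fgf8 and Fgf15) and 4 receptors (Fgfr1 to Fgfr4). These were taken by gene symbol from the 31053 genes counted. A symbol could be attached to 30934 of these, and all 8 were found. Of the 8, 6 were among the 11215 genes with enough reads to be tested, while Fgf8 and Fgfr4 were not and are given by their reads alone. The question put to the data was how the cells' own FGF ligands and receptors stood after naive culture was ended, and whether induction of Esrrb was accompanied by a different set.

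All samples were E14 ES cells carrying a stably integrated construct from which doxycycline (DOX) drives Esrrb, a nuclear receptor that helps hold ES cells in the naive state. The first group was held in N2B27 medium for 96 h after 2iL was taken away, with DOX (3 libraries). The second had the same 96 h without DOX (3 libraries). The third stayed in 2iL without DOX (4 libraries), that is in N2B27 with the GSK3 inhibitor CHIR99021, the MEK inhibitor PD0325901 and the cytokine LIF. DOX was therefore never given in 2iL, no line without the construct was included, and the labels do not say whether the line is 1 clone. Titles place the libraries in 2 experiments, and nothing says that they came from separate cultures, so p-values measure the spread between these libraries, which may be technical.

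FGF ligands are secreted proteins that bind receptor tyrosine kinases together with heparan sulphate. The bound receptors signal through adaptors, RAS, RAF and MEK to the kinase ERK, and ERK in turn induces inhibitors of the same route. In ES cells and the early embryo, Fgf4 is the ligand made by the pluripotent cells themselves. It prepares them for differentiation through ERK and directs neighbouring cells to primitive endoderm. Because PD0325901 blocks MEK, ligand and receptor genes are measured in 2iL while their output to ERK is inhibited.

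The libraries were made from 3′ ends of polyA RNA and held 1253620 to 4715450 reads in genes (median 3334324.5). Levels are counts per 1e+06 gene reads scaled by the trimmed mean of M values (TMM), written CPM, and 1 read was worth 0.216 to 0.737 CPM. The DOX library exp1_2 was the shallowest and stood apart: 3.10% of its reads were mitochondrial (0.559% to 1.27% elsewhere), 7.10% came from ribosomal protein genes (13.1% to 16.4% elsewhere) and 14.8% from Gm42418 (3.39% to 6.61% elsewhere). Markers of fibroblasts summed to 1938 CPM in it, against 10.46 CPM in the lowest DOX library, 17.0 to 21.7 CPM without DOX and 2.00 to 8.87 CPM in 2iL. Markers of macrophages (62.6 CPM, at most 31.3 CPM without DOX and 28.4 CPM in 2iL) and of hepatocytes (26.5 CPM, at most 1.51 CPM without DOX and 1.23 CPM in 2iL) were also highest there. The main results that use the DOX group are therefore given without it as well. Esrrb itself stood at 18.2 ± 7.71 CPM with DOX, at 23.1 ± 9.24 CPM without DOX and at 315 ± 62.7 CPM in 2iL (SD, n = 3, 3 and 4). With DOX against no DOX, its log2 fold change was -0.32 ± 0.33 (SE; edgeR adjusted p = 0.704), or -0.22 without DOX exp1_2, and 3′ reads would show the construct only if it carries the gene's own 3′ end. In bulk RNA, fewer cells of a kind and less RNA per cell cannot be told apart.

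The start regions of the members are shown because their levels moved apart although they belong to 1 signalling route. RefSeq (GRCm38.p6) gave 6 promoters for 5 of the 8 members, each 300 bases long with 250 bases before and 50 after the annotated start; Fgf8, Fgf15 and Fgfr1 had no entry. The 4 below belong to the ligand that was high in 2iL, the ligand that was high at 96 h, and the 2 receptors with the largest fitted rise against 2iL. They lie at chr7:144861136-144861435 (plus strand, Fgf4), chr5:98253934-98254233 (plus, Fgf5), chr7:130266759-130267058 (minus, Fgfr2) and chr5:33721474-33721773 (plus, the first of 2 promoters of Fgfr3). Each is written 5′ to 3′ along its gene, with capitals for GGGCGG (the GC box, or CCGCCC on the other strand) and TATAAA (the TATA box).
Fgf4: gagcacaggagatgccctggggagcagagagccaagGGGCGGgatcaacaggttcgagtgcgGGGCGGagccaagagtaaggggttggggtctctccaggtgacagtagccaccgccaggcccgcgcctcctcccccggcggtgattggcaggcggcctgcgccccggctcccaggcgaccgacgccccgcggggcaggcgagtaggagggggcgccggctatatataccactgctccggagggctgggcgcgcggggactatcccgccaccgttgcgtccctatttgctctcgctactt
Fgf5: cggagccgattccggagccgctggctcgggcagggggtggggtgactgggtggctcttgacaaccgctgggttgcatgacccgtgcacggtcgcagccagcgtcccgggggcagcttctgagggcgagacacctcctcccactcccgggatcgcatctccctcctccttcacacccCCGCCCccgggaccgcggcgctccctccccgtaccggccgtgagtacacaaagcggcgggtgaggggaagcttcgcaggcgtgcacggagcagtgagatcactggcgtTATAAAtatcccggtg
Fgfr2: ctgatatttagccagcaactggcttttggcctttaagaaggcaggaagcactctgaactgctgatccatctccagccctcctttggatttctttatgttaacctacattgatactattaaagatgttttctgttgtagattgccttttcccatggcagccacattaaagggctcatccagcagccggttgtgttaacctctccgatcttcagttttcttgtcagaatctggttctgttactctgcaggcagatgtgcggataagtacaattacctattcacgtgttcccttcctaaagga
Fgfr3: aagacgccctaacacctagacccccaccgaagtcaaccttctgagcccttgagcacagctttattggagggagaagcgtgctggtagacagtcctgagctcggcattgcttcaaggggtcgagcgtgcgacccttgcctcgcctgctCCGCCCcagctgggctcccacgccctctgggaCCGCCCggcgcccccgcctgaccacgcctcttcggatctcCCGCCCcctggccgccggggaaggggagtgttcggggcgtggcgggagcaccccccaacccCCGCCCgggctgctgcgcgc

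The Fgfr2 start region, as placed by RefSeq, differed in make-up from those of the other 4 members. GENCODE begins Fgfr2 at 133123350 and Fgf4 at 144847367, outside the windows shown. The RefSeq window of Fgfr2 held 4 CpG dinucleotides at 43.7% G+C, below the median of 7 CpG and 52.7% over 32851 mouse promoters. Fgf4 (28 CpG, 69.7% G+C), Fgf5 (29 CpG, 68.3%), Fgfr3 (26 and 30 CpG, 69.7% and 73.0%) and Fgfr4 (20 CpG, 65.3%) were all CpG-rich. GC boxes, present in 35.7% of all promoters on either strand, occurred 2 times in Fgf4, once in Fgf5, 4 and 2 times in the Fgfr3 promoters and 4 times in Fgfr4, but not in Fgfr2. A TATAAA, which 13.6% of promoters hold, was found in Fgf5, 34 bases after the annotated start. Only these exact letters were searched, so the tatata in the Fgf4 window was not counted as a match. Neither the Esrrb element TCAAGGTCA (0.423% of promoters) nor its half-site AAGGTCA (4.72%), which lies within it, was in any of the 6 windows on either strand. The octamer ATGCAAAT (1.74%), the Sox element CATTGTT (3.78%), the STAT element TTCNNNGAA (8.30%), the TCF element CTTTGA (16.0%) and the ETS element CCGGAAG (8.86%) were not found there either. A match is a description of the letters, not a binding site, and an absence covers these windows only.

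Removal of 2iL was followed by opposite changes in 2 ligands. Without DOX at 96 h, Fgf4 fell and Fgf5 rose against 2iL, Fgf15 and the receptor Fgfr2 rose as well, and Fgfr1 and Fgfr3 did not pass the test. Of the 6 tested members, 3 rose and 1 fell (edgeR quasi-likelihood test, adjusted p below 0.05 over all genes tested). For comparison, 11.5% of all genes tested rose and 8.9% fell. The median log2 fold change was 2.61 over the 6 members and 0.00 over all genes. Fgf5, Fgf15, Fgfr2 and Fgfr3 were low in 2iL and had enough reads to be tested only through 96 h libraries. A rise was therefore the likelier outcome for them, and the count and median cannot be weighed against all genes. Fitted to the 2 compared groups alone, 4 members were tested, of which 2 rose and 1 fell. Fgf15 and Fgfr3 were not tested there.

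Fgf4 (ENSMUSG00000050917, chromosome 7, 144847367 to 144865243 in GENCODE vM21 on mm10) was well covered by reads in all groups. It stood at 40.2, 50.5 and 40.8 CPM in the no-DOX libraries exp1_1, exp1_2 and exp2_2, against 163, 178, 121 and 96.9 CPM in the 2iL libraries exp1_1, exp1_2, exp2_1 and exp2_2. The groups did not overlap, and within 2iL both libraries of experiment 1 were above both of experiment 2. The mean fell to 43.8 ± 5.74 CPM without DOX, against 140 ± 37.5 CPM in 2iL (SD, n = 3 and 4). This is a log2 fold change of -1.67 ± 0.25 (SE; edgeR adjusted p = 4.94e-05). The log2 ratio of means was -1.91 in experiment 1 and -1.42 in experiment 2. Fgf4 reads were still counted at 96 h in every library, with 137 to 234 reads without DOX.

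Fgf5 (ENSMUSG00000029337, chromosome 5, 98254184 to 98277030) is the ligand by which post-implantation epiblast is recognised. In 2iL it was close to absent, with 1, 2, 1 and 1 reads in the 4 libraries. Without DOX at 96 h it had 104, 68 and 74 reads, or 30.5, 14.7 and 21.7 CPM. Summed over libraries, the rate of reads was 53.2 times that in 2iL, with a 95% counting interval of 22.5 to 165. The fitted log2 fold change was 5.66 ± 0.61 (edgeR adjusted p = 9.46e-07), and the log2 ratio of means was 5.62 for experiment 1 and 6.01 for experiment 2. The 9 listed markers of formative and post-implantation epiblast moved with it: all 9 rose, beside 11.5% of all genes tested. Their summed level was 3066 to 3178 CPM without DOX and 300.2 to 335 CPM in 2iL.

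Fgf15 (ENSMUSG00000031073, chromosome 7, 144896531 to 144900953), the mouse counterpart of human FGF19, is made by the embryonic nervous system and later by the gut. It lies 31.3 kb beyond Fgf4 in the same orientation. It had 2.35, 4.53 and 11.8 CPM in the no-DOX libraries exp1_1, exp1_2 and exp2_2, against 2.33, 0.877, 0.307 and 0 CPM in the 2iL libraries. The groups met almost edge to edge, and the highest no-DOX library belonged to experiment 2. Fitted to all libraries, the log2 fold change was 2.76 ± 0.95 (edgeR adjusted p = 0.0434), while the log2 ratio of means was 1.10 in experiment 1 and 6.26 in experiment 2, where the 2iL libraries held 1 and 0 reads. Summed over libraries, its read rate was 6.79 times that in 2iL (95% counting interval 3.57 to 14.2). The call was lost in 8 of 19 alternative analyses and remained in 4 of the 10 that left out 1 library. It was lost without no-DOX exp1_2 (2.94) or exp2_2 (1.93, adjusted p = 0.291), without 2iL exp1_2 (2.73), exp2_1 (2.49) or exp2_2 (2.39), and without DOX exp1_1 (2.77), each as a log2 fold change. An antisense gene, Gm26793, overlaps Fgf15 and had 22 reads in all, and the labels do not say whether strand was used in counting. Of 6 early neural markers tested, Sox3 and Nes rose as well, beside 11.5% of all genes tested. Sox3 averaged 288 ± 83.0 CPM without DOX and 15.2 ± 3.87 CPM in 2iL. The 8 listed markers summed to 305 to 440 CPM without DOX, most of it Sox3, and to 38.0 to 53.9 CPM in 2iL. Their part in the result was not tested.

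Fgf8 (ENSMUSG00000025219, chromosome 19, 45736798 to 45742915), a ligand of the primitive streak and later of the midbrain, stayed near the limit of detection. It had 2, 4 and 0 reads in the DOX libraries exp1_1, exp2_1 and exp1_2, 19, 4 and 3 reads without DOX, and 1, 0, 6 and 6 reads in 2iL. The no-DOX group stood out only through exp1_1, which held 19 of its 26 reads. The rate without DOX was 2.16 times that in 2iL (95% counting interval 1.07 to 4.59), and with DOX it was 0.300 times that without DOX (0.101 to 0.744; 0.354 without DOX exp1_2). These intervals cover counting error only and not the spread between libraries, in which the groups overlapped.

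**Figure D1:**
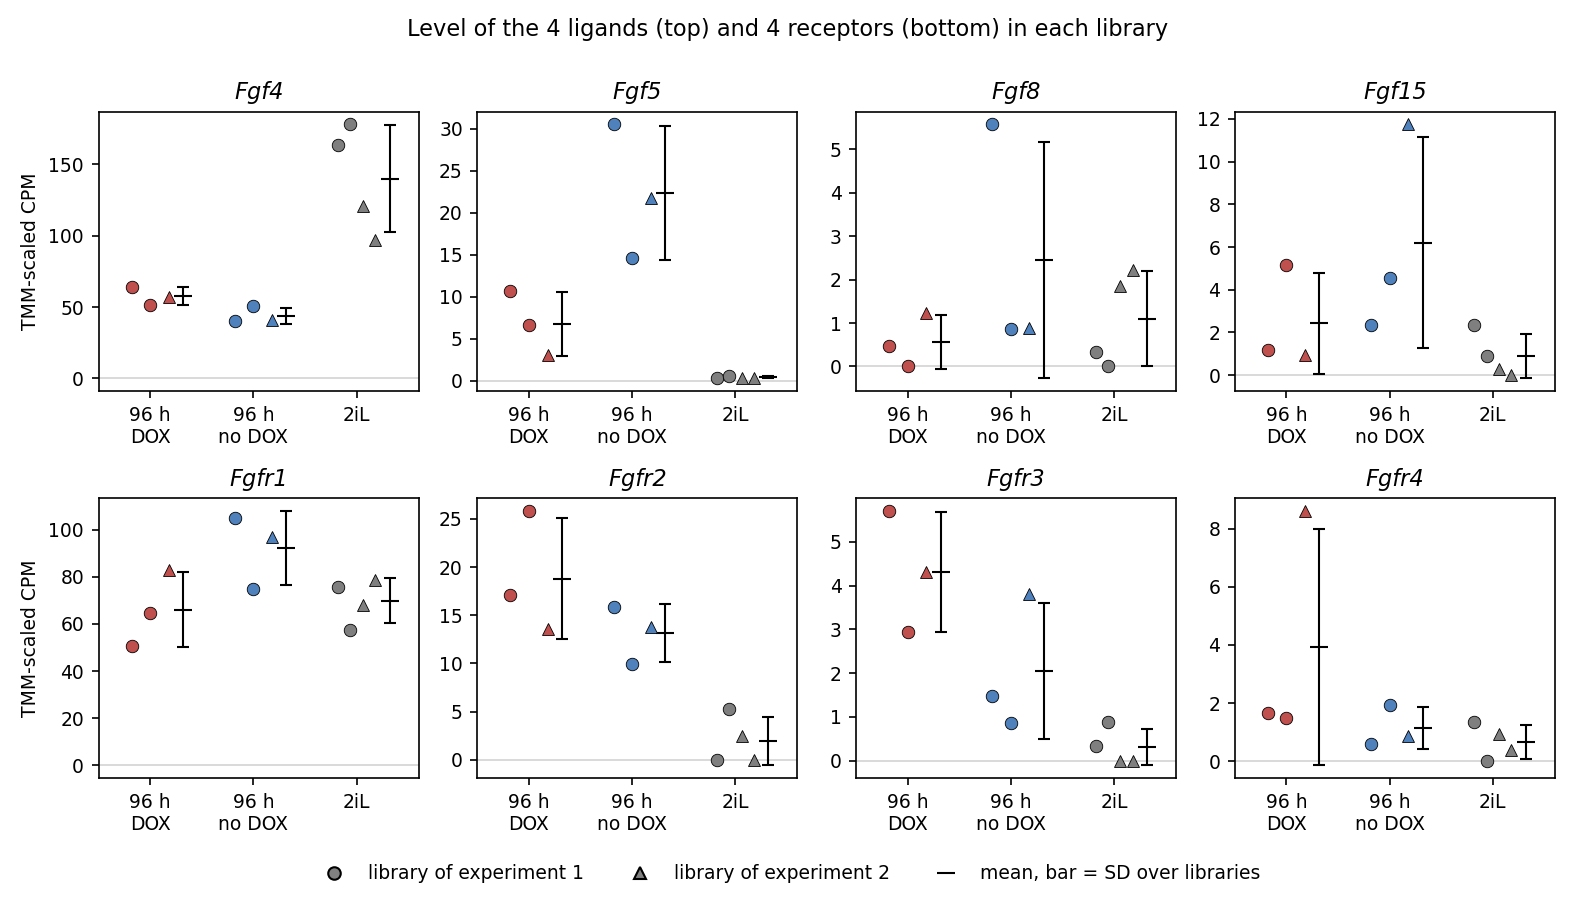
Level of the 4 ligands and 4 receptors in each library (TMM-scaled CPM, linear axes that differ between panels), for 96 h with DOX, 96 h without DOX and 2iL. Circles are experiment 1, triangles experiment 2, and the black marks are the mean and SD; Fgf4 is lower and Fgf5 higher in all 96 h libraries than in all 2iL libraries.

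Among the receptors, Fgfr1 (ENSMUSG00000031565, chromosome 8, 25513654 to 25575718), the principal FGF receptor of the epiblast, was read in every library. It had 105, 74.6 and 96.9 CPM without DOX, against 75.6, 57.3, 67.9 and 78.7 CPM in 2iL. The groups overlapped. Its log2 fold change was 0.40 ± 0.23 (edgeR adjusted p = 0.271), and its 95% interval ran from -0.09 to 0.89.

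Fgfr2 (ENSMUSG00000030849, chromosome 7, from 130162451), a receptor of primitive endoderm and trophectoderm, rose after removal of 2iL. It had 15.9, 9.92 and 13.8 CPM without DOX, against 0, 5.26, 2.46 and 0 CPM in 2iL, with no overlap. The mean was 13.2 ± 3.02 CPM without DOX and 1.93 ± 2.51 CPM in 2iL (SD, n = 3 and 4), so that its log2 fold change came to 2.68 ± 0.69 (edgeR adjusted p = 0.00773). Without 2iL exp1_2, the 2iL library with most Fgfr2 reads, it was 3.84 (adjusted p = 0.00128), and limma-voom gave 3.86. Fitted to experiment 1 alone, with 2 libraries a group, it was 2.22 and no longer called (adjusted p = 0.0978), and the log2 ratio of means was 3.49 in experiment 2. Fgfr2 lies on the minus strand, so its start is at the higher coordinate. In GENCODE the Fgfr2 model reaches across many neighbouring genes to a start at 133123350, whereas in RefSeq it starts at 130266808. Reads shared with those neighbours could therefore have been counted differently.

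Fgfr3 (ENSMUSG00000054252, chromosome 5, 33721674 to 33737068) had 5, 4 and 13 reads without DOX, against 1, 3, 0 and 0 reads in 2iL. With so few reads, the log2 fold change was 2.53 ± 1.06 and did not pass (edgeR adjusted p = 0.103); its 95% interval ran from 0.32 to 4.74. It was 1.75 without no-DOX exp2_2 (adjusted p = 0.399) and 3.76 without 2iL exp1_2 (adjusted p = 0.0556). Fgfr4 (ENSMUSG00000005320, chromosome 13, 55152640 to 55168759), which with the co-receptor Klb receives Fgf15 in liver, had 2, 9 and 3 reads without DOX and 4, 0, 3 and 1 reads in 2iL. The read rate was 1.89 times that in 2iL, with a counting interval of 0.741 to 5.21 that includes equality.

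With DOX at 96 h, no member passed the test against the same 96 h without DOX. Fgf5 had a lower mean and Fgf4 a higher mean with DOX, and their DOX and no-DOX libraries did not overlap. The share of all genes without overlap was not counted, so a lack of overlap, here and elsewhere, is description only. Fgfr2, Fgfr3 and Fgfr4 had higher means with wide errors. Of the 6 tested members, 0 rose and 0 fell by edgeR's quasi-likelihood test, and DESeq2 and limma-voom also called 0. Over all genes, 2.16% rose and 0.945% fell. At an unadjusted p below 0.05 there was 1 member, Fgf5. The median log2 fold change was -0.04 over the 6 members and -0.02 over all genes.

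Fgf5 had 10.7, 3.07 and 6.63 CPM in the DOX libraries exp1_1, exp2_1 and exp1_2, against 30.5, 14.7 and 21.7 CPM in the no-DOX libraries. The highest DOX library was below the lowest no-DOX library. The mean was 6.80 ± 3.81 CPM with DOX and 22.3 ± 7.95 CPM without DOX (SD, n = 3 each). The log2 fold change of -1.69 ± 0.50 (95% interval -2.74 to -0.64) had an unadjusted p of 0.00315 and an edgeR adjusted p of 0.0788. Without DOX exp1_2 it was -1.67 (adjusted p = 0.157). As a log2 ratio of means it was -1.38 in experiment 1 and -2.82 in experiment 2, so both experiments gave the same direction.

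Fgf4 had 63.9, 57.2 and 51.6 CPM in the DOX libraries exp1_1, exp2_1 and exp1_2, against 40.2, 50.5 and 40.8 CPM without DOX. The groups did not overlap, although by little. Their log2 fold change was 0.40 ± 0.26 (edgeR adjusted p = 0.505; 95% interval -0.15 to 0.94), and 0.46 without DOX exp1_2. Fgf15 had 1.19, 0.922 and 5.16 CPM with DOX, against 2.35, 4.53 and 11.8 CPM without DOX; the groups overlapped through DOX exp1_2. Its log2 fold change was -1.54 ± 1.00 (adjusted p = 0.501), and -2.51 without DOX exp1_2 (adjusted p = 0.406). It was -0.68 without no-DOX exp2_2 (adjusted p = 0.882) and -0.27 in experiment 1 alone. Of the 6 early neural markers tested, Sox3 and Nes fell with DOX, beside 0.945% of all genes tested. Sox3 averaged 38.8 ± 19.6 CPM with DOX and 288 ± 83.0 CPM without DOX. Pax6 averaged 7.94 and 7.97 CPM and Sox1 6.79 and 5.66 CPM in that order, and neither passed. The part of these markers was again not tested.

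The balance of the 2 ligands within a library does not depend on scaling. Fgf5 had 16.7, 5.38 and 12.9 reads per 100 Fgf4 reads in the DOX libraries exp1_1, exp2_1 and exp1_2. Without DOX there were 75.9, 29.1 and 53.2, and in 2iL 0.204, 0.328, 0.254 and 0.382. The 3 groups did not overlap, with the DOX group between the other groups. The means were 11.7 ± 5.77 with DOX, 52.7 ± 23.4 without DOX and 0.292 ± 0.0786 in 2iL (SD, n = 3, 3 and 4). Since this ratio combines members, it is given without a test. Without DOX exp1_2 the DOX mean was 11.1. Of 10 naive ES cell markers, 5 were called higher with DOX than without (also 5 without DOX exp1_2), beside 2.16% of all genes tested. Their summed level was 842 to 1224 CPM with DOX, against 333 to 409 CPM without DOX and 2698 to 3088 CPM in 2iL. Single markers did not all lie between: Klf5 averaged 376 ± 206 CPM with DOX, 63.7 ± 17.3 CPM without DOX and 311 ± 49.4 CPM in 2iL, and Klf2 43.6, 52.4 and 260.1 CPM in that order. Of the 9 epiblast markers, 1 was called higher and 1 lower with DOX than without, beside 2.16% and 0.945% of all genes tested. Without DOX exp1_2 these were Dnmt3a and Dnmt3b, and the median log2 fold change of the 9 was -0.52. With all libraries, the summed level of the 9 was 2065 to 3043 CPM with DOX, against 3066 to 3178 CPM without DOX, with no overlap. Single markers differed in direction. Dnmt3a averaged 741 CPM with DOX and 260 CPM without DOX, Dnmt3b 929 and 1832 CPM, and Otx2 247 and 264 CPM. The part of these markers in the ratio was not tested.

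**Figure D2:**
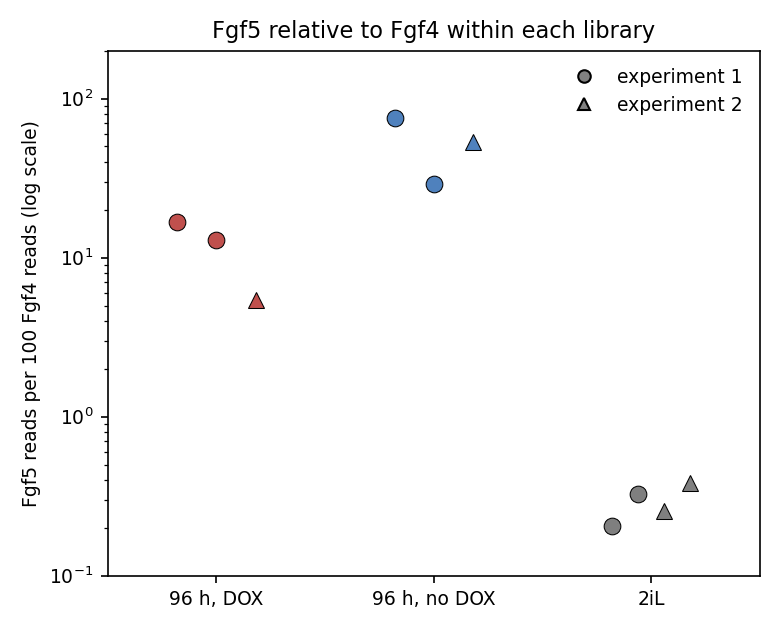
Fgf5 reads per 100 Fgf4 reads in each library (log axis), for 96 h with DOX, 96 h without DOX and 2iL; circles are experiment 1 and triangles experiment 2. The DOX libraries lie between 5.38 and 16.7, the no-DOX libraries between 29.1 and 75.9, and the 2iL libraries below 1.

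Fgfr1 had 50.9, 82.7 and 64.8 CPM in the DOX libraries exp1_1, exp2_1 and exp1_2, against 105, 74.6 and 96.9 CPM without DOX. The groups overlapped through DOX exp2_1. The log2 fold change was -0.48 ± 0.25 (edgeR adjusted p = 0.393; 95% interval -1.01 to 0.05), and -0.47 without DOX exp1_2. Fgfr2 had 17.1, 13.5 and 25.8 CPM with DOX, against 15.9, 9.92 and 13.8 CPM without DOX. Its highest value was in DOX exp1_2. Fitted to all libraries, its log2 fold change was 0.49 ± 0.66 (adjusted p = 0.790), and 0.22 without that library.

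Fgfr3 had 24, 14 and 4 reads in the DOX libraries, or 5.70, 4.30 and 2.95 CPM, against 1.47, 0.863 and 3.82 CPM without DOX. For Fgfr3 the log2 fold change was 1.12 ± 0.93 (edgeR adjusted p = 0.625), and 1.29 without DOX exp1_2. Fgfr4 had 7, 28 and 2 reads in the DOX libraries exp1_1, exp2_1 and exp1_2. Its read rate was 3.43 times that without DOX (95% counting interval 1.81 to 6.87; 3.84 times without DOX exp1_2), but 28 of the 37 DOX reads came from exp2_1 and the other DOX libraries, at 1.66 and 1.47 CPM, were within the no-DOX range of 0.587 to 1.94 CPM.

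Of 10 listed primitive endoderm markers, 9 were tested and 7 rose with DOX against no DOX (5 without DOX exp1_2), beside 2.16% of all genes tested. Gata6, Gata4, Sox17, Pdgfra and Foxa2 had enough reads to be tested only through DOX libraries. A rise was therefore the likelier outcome for them, and the count cannot be weighed against all genes. The 10 markers summed to 452 to 633 CPM with DOX (highest in exp1_2), 98.1 to 116 CPM without DOX and 30.7 to 61.7 CPM in 2iL. Among them Gata6 averaged 51.3 ± 8.57 CPM with DOX (46.4 CPM without DOX exp1_2) and 0.829 ± 0.811 CPM without DOX. Pdgfra averaged 41.0 ± 35.4 CPM with DOX and 0.633 ± 0.755 CPM without DOX, and its DOX mean was 20.7 CPM without DOX exp1_2, which stood at 81.8 CPM. Sox7 had no reads without DOX or in 2iL. Their part in the levels of the receptors was not tested. Fibroblast markers were high in DOX exp1_2, the library with the highest Fgfr2 level, and that was not tested either.

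Set against 2iL, the cells given DOX had less Fgf4 and more Fgf5, Fgfr2 and Fgfr3. Of the 6 tested members, 3 rose and 1 fell, while 9.84% of all genes rose and 6.83% fell. This comparison shares its 2iL libraries with the first, so the counts are not independent. Members low in 2iL were again tested only through their 96 h reads, so the count cannot be weighed against all genes. Fgf4 averaged 57.6 ± 6.19 CPM with DOX and 140 ± 37.5 CPM in 2iL (log2 fold change -1.27 ± 0.25, edgeR adjusted p = 0.00113). Fgf5 averaged 6.80 ± 3.81 CPM with DOX and 0.399 ± 0.127 CPM in 2iL, a log2 fold change of 3.97 ± 0.64 (adjusted p = 0.000176). In neither gene did the groups overlap.

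For the receptors, Fgfr2 averaged 18.8 ± 6.30 CPM with DOX and 1.93 ± 2.51 CPM in 2iL (3.18 ± 0.70 on the log2 scale, edgeR adjusted p = 0.00317). Fgfr3 averaged 4.32 ± 1.38 CPM with DOX and 0.303 ± 0.414 CPM in 2iL. Its log2 fold change was 3.65 ± 1.03 (adjusted p = 0.0183), a call lost in experiment 1 alone (2.80, adjusted p = 0.189), without 2iL exp2_1 (3.29) and without DOX exp1_1 (3.41). Without DOX exp1_2, the log2 fold changes were -1.21 for Fgf4, 3.997 for Fgf5, 2.90 for Fgfr2 and 3.84 for Fgfr3, and all 4 remained called. Fgf15 (1.22 ± 1.04, adjusted p = 0.476; 0.25 without DOX exp1_2) and Fgfr1 (-0.08 ± 0.24, adjusted p = 0.862; -0.07 without it) did not pass. Fgfr1 took the opposite sign in 3 alternatives, among them upper-quartile scaling (0.02), and its 95% interval of -0.58 to 0.42 bounds any difference. The Fgfr4 read rate was 6.49 times that in 2iL (counting interval 2.98 to 16.1; 7.26 times without DOX exp1_2), again mostly from DOX exp2_1.

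**Figure D3:**
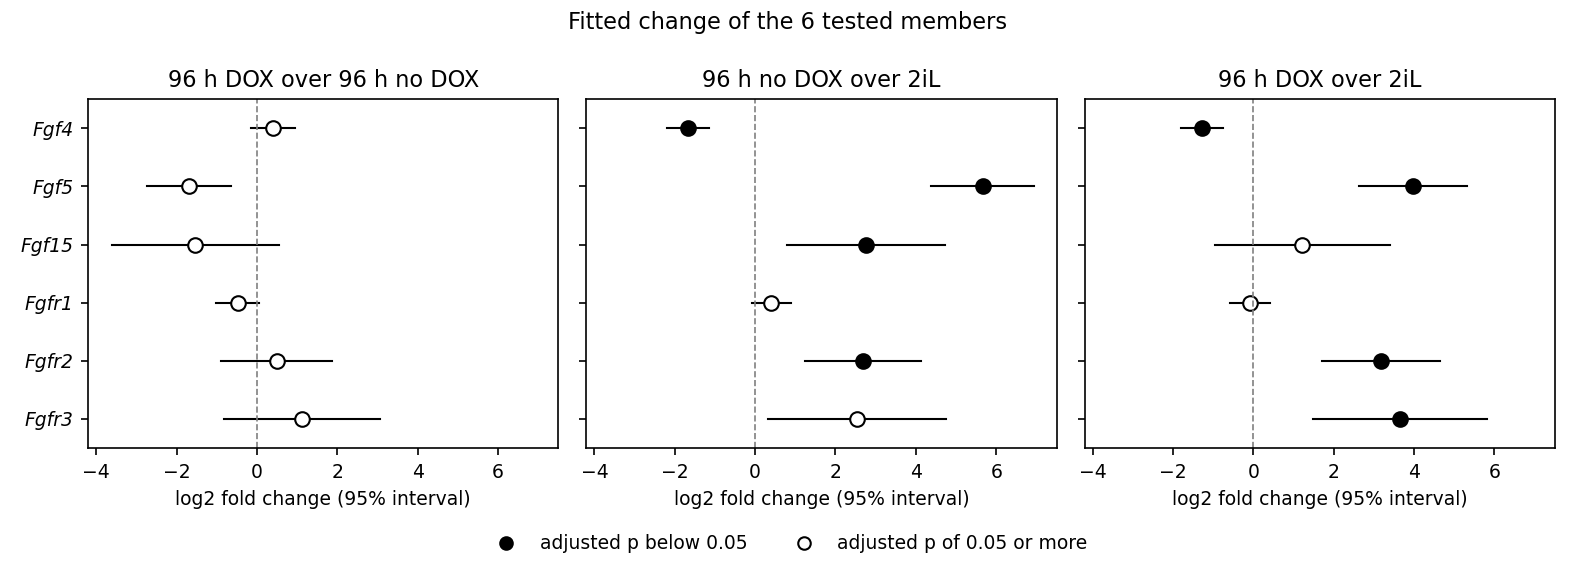
Log2 fold change of the 6 tested members with its 95% interval, for 96 h with DOX over 96 h without DOX, 96 h without DOX over 2iL, and 96 h with DOX over 2iL. Filled points had an adjusted p below 0.05: none in the DOX comparison and 4 in each comparison with 2iL.

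Ordered by level over the groups, Fgf4 was highest in 2iL and Fgf5 highest at 96 h without DOX, with the DOX group between the others for both. For Fgf4 and Fgf5 the DOX and no-DOX neighbours did not differ past the threshold, while each 96 h group differed from 2iL. Fgfr2 and Fgfr3 were highest with DOX, then without DOX, then in 2iL. Only the step of Fgfr2 between no DOX and 2iL passed the test between neighbours, since for Fgfr3 the ends of the order differed but neither neighbouring pair passed. No neighbours differed for Fgfr1.

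Experiment 2 had 1 library in each 96 h group, so the effects of the experiments were compared by an interaction term. No member passed in any of the 3 comparisons by edgeR. Over all genes, 0.00892% differed between experiments for removal of 2iL, 0% for DOX against no DOX and 0% for DOX against 2iL. At an unadjusted p below 0.05 there were 2 members for removal of 2iL and 0 for the other comparisons, beside 854, 614 and 721 of the 11215 genes. These were Fgf15 and Fgfr3, with edgeR adjusted p = 0.583 and 0.628.

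The make-up of the receptor reads is given as a description only, since no tested receptor passed between DOX and no DOX. Fgfr1 held 67.5%, 75.8% and 68.2% of the reads of Fgfr1 to Fgfr4 in the DOX libraries exp1_1, exp2_1 and exp1_2. In the no-DOX libraries exp1_1, exp1_2 and exp2_2 it held 85.4%, 85.4% and 84.0%, and in the 2iL libraries 97.8%, 90.3%, 95.3% and 99.5%. The 3 groups did not overlap. The means were 70.5% ± 4.58 with DOX, 84.9% ± 0.837 without DOX and 95.7% ± 4.02 in 2iL (SD, n = 3, 3 and 4), and 71.6% with DOX when exp1_2 was left out. The exact (Clopper-Pearson) 95% interval of a single DOX library was widest in exp1_2, at 59.4% to 76.1% of 129 receptor reads.

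Among the other receptors, Fgfr2 had the largest mean share in each group, though not in each library. Fgfr2 had 20.7% ± 7.56 of receptor reads with DOX, 12.1% ± 0.787 without DOX and 2.94% ± 3.93 in 2iL. Its DOX shares were 22.7%, 12.4% and 27.1%, of which that of exp2_1 was within the no-DOX range of 11.4% to 12.9%. Its 0 reads in 2iL exp1_1 and exp2_2 allow shares of up to 1.58% and 1.71% by the same exact interval. Without DOX exp1_2 the mean DOX share was 17.6% for Fgfr2, 5.76% for Fgfr3 and 5.05% for Fgfr4. With all libraries, Fgfr3 held 4.87% ± 2.38 with DOX, 1.83% ± 1.28 without DOX and 0.453% ± 0.652 in 2iL. Fgfr4 held 3.88% ± 3.48 with DOX, 1.15% ± 0.935 without DOX and 0.871% ± 0.781 in 2iL. By DOX library the Fgfr4 share was 2.21% in exp1_1, 7.89% in exp2_1 and 1.55% in exp1_2, against 0.478% to 2.22% without DOX. In exp2_1 the lower Fgfr1 share thus went with more Fgfr4 reads rather than more Fgfr2 reads. The summed level of the 4 receptors was 93.2 ± 17.0 CPM with DOX (92.2 CPM without exp1_2), 109 ± 18.7 CPM without DOX and 72.8 ± 7.06 CPM in 2iL, with overlap between the 96 h groups. These are shares of 3′ reads, and no p is given for them because they combine members.

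**Figure D4:**
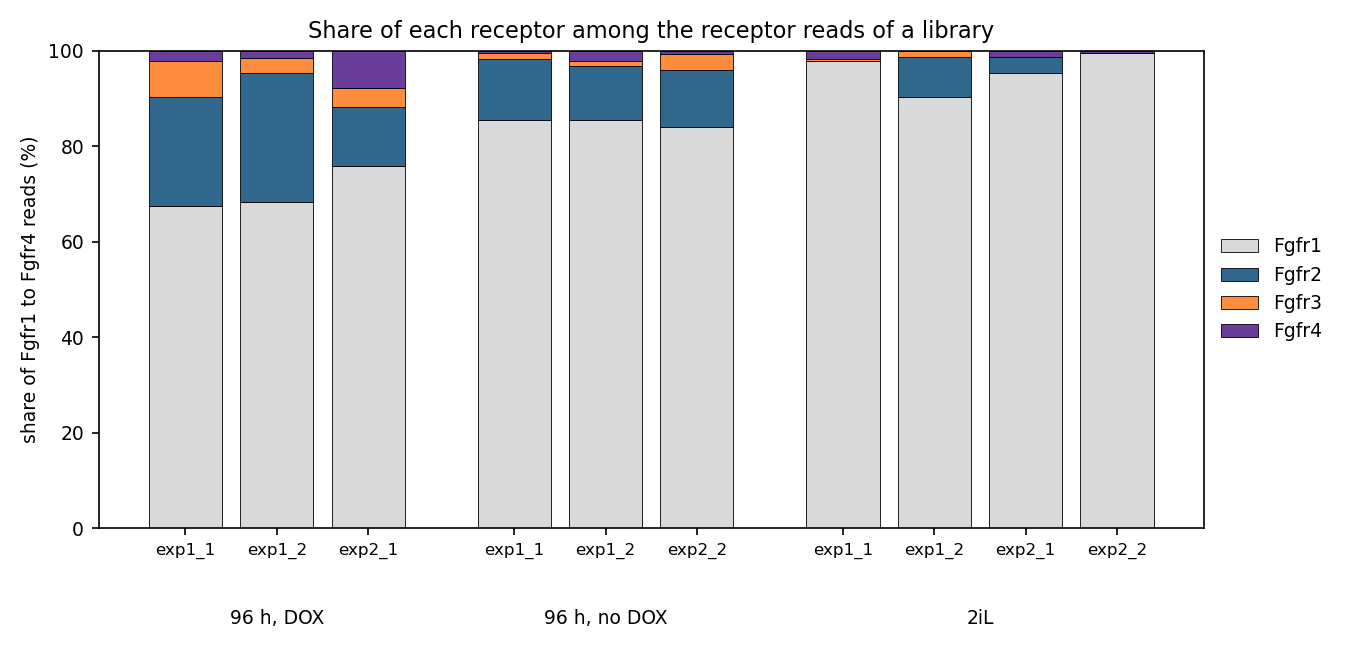
Share of Fgfr1, Fgfr2, Fgfr3 and Fgfr4 among the receptor reads of each library (percent, stacked to 100), for 96 h with DOX, 96 h without DOX and 2iL. Fgfr1 holds 67.5% to 75.8% with DOX, 84.0% to 85.4% without DOX and 90.3% to 99.5% in 2iL.

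Over the 10 libraries, Fgf4 ran opposite to Fgf5 (Pearson r = -0.90 of log2(CPM + 1)), and Fgfr2 ran with Fgfr3 (0.82) and with Fgf5 (0.78). These coefficients are descriptions, since the libraries fall into 3 groups and share their depth. Among tested genes with a mean of at least 10 CPM, those with the pattern most like Fgf4 were Rpp25 (r = 0.98), Zfp296 (0.97) and Dact2 (0.97). For Fgf5 they were Mbtd1 (0.99), Armcx2 (0.98) and Syt11 (0.98). For Fgfr2 they were Myrf (0.96), Slc43a2 (0.94) and Cyb5a (0.94), and for Fgfr3 Tcf15 (0.94), Cemip2 (0.92) and Trmt1l (0.92). For Fgfr1 (Anks1, Tsen15 and Nol10, at 0.89, 0.89 and 0.89) and Fgf15 (Ptpn11, Tbc1d15 and Rhoq, at 0.92, 0.90 and 0.90) the likeness was weaker. Without DOX exp1_2, 2 of these 3 genes were named again for Fgf4 and for Fgf5, 1 of 3 for each of the receptors, and 0 of 3 for Fgf15.

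The remaining FGF ligands had few reads: 3 of 18 were tested, and Fgf6, Fgf16, Fgf20, Fgf21 and Fgf23 had no reads in any library. Fgf10, a ligand of organ outgrowth, fell on removal of 2iL, the 1 call of this list, beside 8.9% of all genes tested. It had enough reads to be tested only through 2iL libraries. A fall from 2iL was therefore the likelier outcome for Fgf10, with or without DOX, and its calls cannot be weighed against all genes. Fgf10 was low in all 96 h libraries. It had 0, 1 and 1 reads without DOX, against 15, 38, 56 and 14 reads in 2iL. The read rate was 0.0176 times that in 2iL (95% counting interval 0.00211 to 0.0649; edgeR adjusted p = 0.000779). With DOX it had 5, 0 and 4 reads in exp1_1, exp2_1 and exp1_2, and was also lower than in 2iL (log2 fold change -3.03 ± 0.91, adjusted p = 0.0249; -3.85 without DOX exp1_2). Fgf3, whose annotated end lies 17.0 kb before the RefSeq start of Fgf4, did not pass in any comparison. With DOX against no DOX none of the 3 was called, nor had an unadjusted p below 0.05. Fgf3 averaged 3.11 ± 0.915 CPM with DOX, 4.53 ± 5.21 CPM without DOX and 6.90 ± 2.87 CPM in 2iL.

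Several ligands under the filter, named here after their values were seen, had reads mostly in 1 group. Fgf22 had 19 reads with DOX, 1 without DOX and 4 in 2iL, a read rate with DOX 24.7 times that without (counting interval 3.92 to 1025; 24.5 times without DOX exp1_2). Fgf13, which acts inside cells and not through receptors, had 3 reads with DOX, 45 without DOX and 17 in 2iL. Its rate with DOX was 0.0865 times that without (0.0172 to 0.270), or 0.0341 without DOX exp1_2, from 1 read. The no-DOX reads of Fgf13 were 2, 14 and 29 in exp1_1, exp1_2 and exp2_2. The groups overlapped, with 0.587 CPM in no-DOX exp1_1 and 1.47 CPM in DOX exp1_2. The intervals of Fgf22 and Fgf13 cover counting error only and not the spread between libraries. Fgf7 had 9 reads with DOX, of which 8 were in exp1_2, and none in the other groups.

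Among 6 co-receptors and binding proteins tested of 10, none passed on removal of 2iL by edgeR (2 at an unadjusted p below 0.05), and Flrt3 rose with DOX. Over all genes tested, 2.16% rose with DOX. Flrt3, a membrane protein that binds FGF receptors, averaged 31.4 ± 5.46 CPM with DOX and 6.31 ± 1.26 CPM without DOX (log2 fold change 2.30 ± 0.51, edgeR adjusted p = 0.0142), and its call held without DOX exp1_2. The median log2 fold change of the list was -0.26 with DOX and 0.47 on removal of 2iL. Fgfrl1, a receptor without a kinase domain, averaged 14.6 ± 4.95 CPM with DOX, 18.3 ± 7.35 CPM without DOX and 14.4 ± 9.11 CPM in 2iL, and did not pass.

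Of 26 genes for heparan sulphate, the sugar chain that FGFs need to bind their receptors, 21 were tested. On removal of 2iL, 5 rose and none fell, beside 11.5% and 8.9% of all genes tested. Sdc3 and Hs6st2, among these 5, averaged 0.246 and 1.09 CPM in 2iL and could be tested only through 96 h libraries. A rise was therefore the likelier outcome for them, and the count cannot be weighed against all genes. Gpc1, a carrier of the chain, averaged 123 ± 9.23 CPM without DOX and 16.7 ± 2.79 CPM in 2iL (2.88 ± 0.27 on the log2 scale, edgeR adjusted p = 1.44e-07). Ext1, which extends the chain, rose by 1.12 ± 0.26 and Sulf1, which trims sulphate from it, by 0.81 ± 0.29. With DOX against no DOX, 1 rose and 3 fell, beside 2.16% and 0.945% of all genes tested. The sulphotransferase Hs6st2 averaged 24.8 ± 5.48 CPM with DOX and 4.37 ± 0.0535 CPM without DOX (2.48 ± 0.51, adjusted p = 0.00776), while its relative Hs6st1 fell by 1.02 ± 0.25 on the log2 scale. The carriers Sdc1 and Gpc1 fell by 1.30 ± 0.34 and 1.11 ± 0.27. Without DOX exp1_2, Hs6st2 was still called and the 3 falls were not.

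Inside the cell, 24 of 25 adaptors and kinases from the receptor to ERK were tested, and 3 rose on removal of 2iL, a share near the 11.5% of all genes tested that rose. These were Braf (1.26 ± 0.39 on the log2 scale), Mapk3, which encodes ERK1 (1.01 ± 0.26), and Plcg1 (0.66 ± 0.23). Mapk3 averaged 113 ± 41.5 CPM with DOX, 238 ± 84.3 CPM without DOX and 118 ± 12.5 CPM in 2iL, and was the 1 gene of the list to fall with DOX (-1.06 ± 0.29, edgeR adjusted p = 0.0489). That call was lost without DOX exp1_2, where Rps6ka1 alone was called, as higher.

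Of 17 feedback inhibitors 16 were tested, and 4 rose on removal of 2iL with none falling, beside 11.5% and 8.9% of all genes tested. Spred3, an inhibitor of RAF activation, averaged 65.6 ± 29.5 CPM without DOX and 4.04 ± 0.996 CPM in 2iL (4.01 ± 0.41 on the log2 scale, edgeR adjusted p = 5.17e-07). The ERK phosphatases Dusp4 (3.77 ± 0.37), Dusp6 (1.29 ± 0.25) and Dusp9 (1.22 ± 0.33) made up the rest. Spry2, a Sprouty inhibitor, averaged 79.3 ± 9.22 CPM without DOX and 75.3 ± 19.3 CPM in 2iL, a log2 fold change of 0.08 ± 0.24 that did not pass. With DOX against no DOX the list had 0 calls among the 16 genes by edgeR (3 at an unadjusted p below 0.05), and without DOX exp1_2 it had 1, Dusp9. Against 2iL, the cells given DOX had the same 4 genes higher, with Dusp9 at 104 ± 49.8 CPM, and Il17rd lower (not called without DOX exp1_2). Over all genes tested, 9.84% were higher and 6.83% lower in that comparison.

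Of 18 transcription factors known as ERK targets, 14 were tested, and 2 rose and 1 fell on removal of 2iL, shares near those of all genes tested (11.5% and 8.9%). Jun averaged 24.6 ± 5.08 CPM without DOX and 3.99 ± 2.41 CPM in 2iL (2.62 ± 0.50 on the log2 scale, edgeR adjusted p = 0.000690), and Srf rose by 1.36 ± 0.36. Junb fell by 1.72 ± 0.46. The FGF targets Etv4 and Etv5 did not pass in any comparison. Etv5 averaged 564 ± 340 CPM with DOX, 753 ± 302 CPM without DOX and 721 ± 239 CPM in 2iL. With DOX against no DOX none of the 14 was called by edgeR, with 2 at an unadjusted p below 0.05, nor any without DOX exp1_2.

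**Figure D5:**
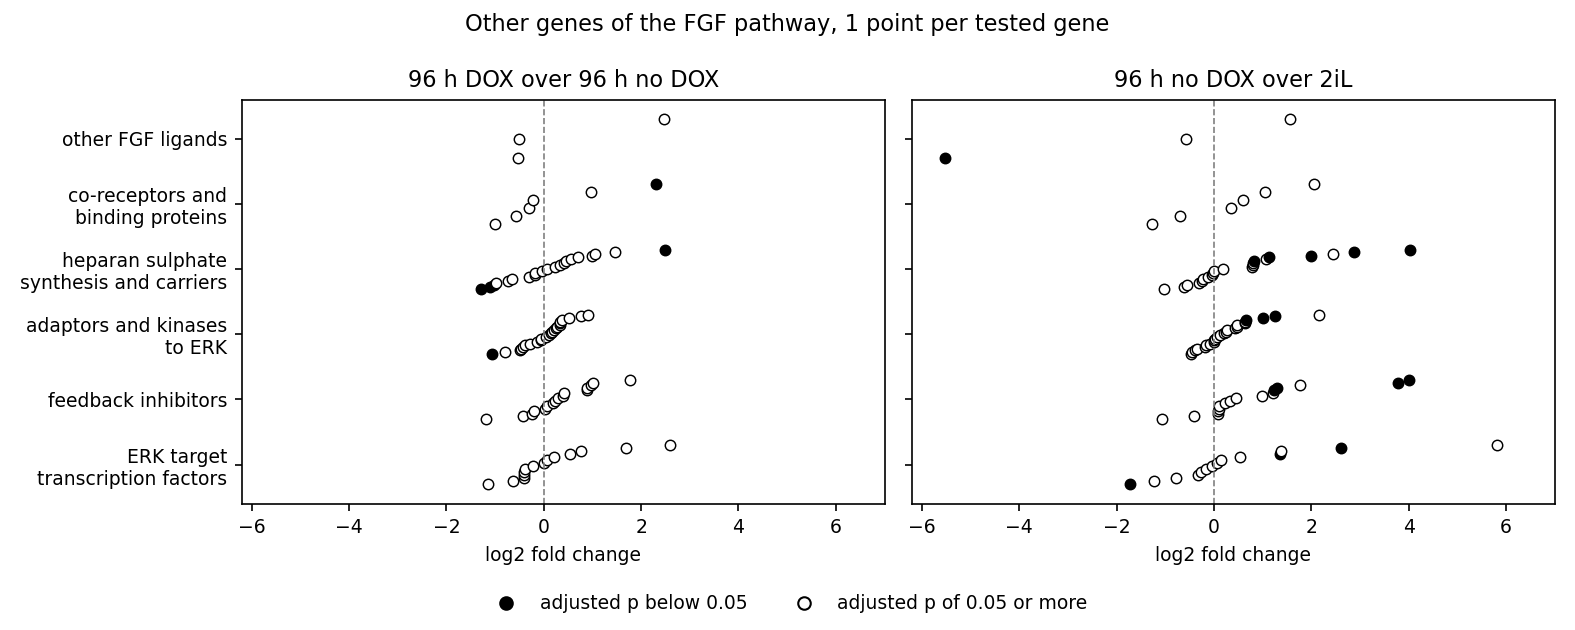
Log2 fold change of the tested genes of 6 lists of the FGF pathway, for 96 h with DOX over 96 h without DOX (left) and 96 h without DOX over 2iL (right); filled points had an adjusted p below 0.05. In the feedback list, 4 genes are filled on removal of 2iL and none with DOX.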

How the data were processed

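Read counts per gene, as deposited for each of the 10 libraries, were used for every value; per the labels' protocols they come from 3′ digital gene expression of polyA RNA, and per the submitters' processing notes from bcl2fastq, STAR 2.6.0a, HTSeq and mm10. Which annotation release was counted, and with which strand setting, the sources used here do not give. HTSeq's 5 summary lines (62.7% to 68.4% of reads) were taken off. A deposited CPM table was not used here. Genes passed filterByExpr by group (minimum count 10), libraries were scaled by TMM (0.911 to 1.09), and edgeR 4.0.16 in R 4.3.3 fitted quasi-likelihood models to all 10 libraries, with Benjamini-Hochberg adjustment over 11215 genes and a threshold of 0.05. The scripts were tested on simulated data. SEs come from the fold change and the F statistic.

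Named genes were the 8 members, up to 4 called genes per list with the largest change (mean of 5 CPM or more in either group), and the 3 genes most correlated with each member. The members and lists were chosen with earlier results of these data known. Alternatives were other scalings, filters, DESeq2 1.42.0, limma-voom (limma 3.58.1), fewer libraries and experiment blocks.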

Additional observations from a re-analysis of the deposited data

Results flagged for a closer look

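Fgf8 moved in opposite directions in the 2 experiments. For 96 h with DOX minus 96 h without DOX, the difference in mean CPM was -2.98 in experiment 1 and 0.348 in experiment 2. For 96 h without DOX minus 2iL, it was 3.05 in experiment 1 and -1.15 in experiment 2. The difference between experiments was not tested, since Fgf8 was under the filter on low counts. Most of it rests on 19 reads in the no-DOX library exp1_1, and experiment 2 had 1 library in each 96 h group.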

How the results depend on the processing

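No member reversed under any alternative in which it was called. Fgf4 and Fgf5 kept their calls against 2iL in all 20 alternatives, and no member passed for DOX against no DOX in any (adjusted p of Fgf5 0.05004 to 0.451). Within experiment 1 alone, calls numbered 2 members and 1226 genes for removal of 2iL (4 and 2289 with all libraries), 108 genes for DOX against no DOX (348) and 926 for DOX against 2iL (1870). For DOX against no DOX, genes called were 564 with no filter, 563 with DESeq2 and 212 with the compared groups only; leaving out 1 library gave 161 (without no-DOX exp1_1) to 358, with 181 without no-DOX exp2_2. Same-numbered libraries did not deviate together (8 pairs, r = -0.10 to 0.23), and the replicate block of experiment and number gave 159 genes, 0 members, for DOX against no DOX, and 3 members for removal of 2iL. Without DOX exp1_2, lists on removal of 2iL gave 1 falling co-receptor gene, 6 rising heparan sulphate genes, 4 rising and 1 falling feedback inhibitors and 2 rising and 2 falling ERK targets. Repeating the list counts, marker counts, read rates and means without that library was chosen after seeing the data. Depth limits Fgf8, Fgfr3 and Fgfr4, which had 0 to 19, 0 to 24 and 0 to 28 reads in a library.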
